A study of Mus musculus with 8 samples.

Results

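The fibroblast growth factor (FGF) genes described here are Fgf1, Fgf2, Fgf9, Fgf10, Fgf11, Fgf12, Fgf13, Fgf14, Fgfr1 and Fgfr2, 10 of the 16593 genes named by at least 1 probe on a mouse expression array. Every probe whose symbol on the array platform was 1 of these names was taken, which gave 21 probes. Secreted FGFs bind heparan sulfate and cell-surface receptor tyrosine kinases (Fgfr genes), and the receptors signal through adaptor proteins to the MAP kinase and phosphoinositide 3-kinase pathways. In brain these signals act in patterning, in the growth of neural progenitors and in the support of neurons. The FGF homologous factors stay inside the cell, do not act as receptor ligands, and bind voltage-gated sodium channels.

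RNA from mouse brain was hybridised to Illumina MouseRef-8 bead arrays, 4 from mice given methanol and 4 from mice given normal saline. The labels give 120 mg/kg of methanol in 350 µl for the methanol mice and the same volume of saline for the others, with brains taken 2 h later, and name neither the route nor the number of mice behind 1 array. The study's methods describe an experiment in BALB/c mice, an inbred strain, that differed in exposure, in control (water) and in group size. There methanol was inhaled as vapor from soaked cotton wool, while the labels give a dose and a volume without a route. The methods call the brain samples biological replicates, but no source says whether an array held RNA of 1 mouse or of several.

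All values are log2 intensities after background correction and normalization, on which a lowest detected signal lay at 5.46 on average on methanol arrays and at 5.42 on saline arrays. A change is the methanol mean minus the saline mean on this scale, given with its standard error (SE). A probe was compared where its signal exceeded that of the negative controls (detection p under 0.05) on at least 4 of the 8 arrays, which 11938 probes of 25697 did. A change was called where limma's moderated test, two-sided and adjusted by Benjamini-Hochberg over all these probes, gave an adjusted p under 0.05. By this test 372 probes were higher after methanol and 297 were lower. The arrays detected 11291 to 12366 probes each in the methanol group and 11855 to 12199 in the saline group. Correlations between arrays were 0.981 to 0.989 within groups. Of the markers of the main brain cells, 0 of 5 neuronal, 0 of 7 astrocyte and 0 of 6 endothelial genes were called, with 3 of 8 oligodendrocyte genes (Cldn11 and Mal higher, Opalin lower), 1 of 7 microglial genes (P2ry12, lower) and 4 of 5 red cell genes (lower). Of the cerebellar list, Cbln1 was detected on 8 of 8 arrays, and Pcp2, Calb1, Cbln3 and Gabra6 on 0. Xist, transcribed from the inactive X chromosome, was detected on 8 of 8 arrays, which goes against the labelled male sex. Of the Y-linked genes, Eif2s3y and Kdm5d were detected on 0 arrays, and Uty on 3 of 4 methanol and 1 of 4 saline arrays, at 5.04 to 5.71 near the detection floor.

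Of the FGF genes, Fgf10 was lower after methanol and no other was called changed. Of the 21 probes, 10 were compared, covering 7 genes, and 11 were left out as too dim. Both probes called changed were for Fgf10, and both were lower. Over all compared probes, 2.49% were called lower, 3.12% were called higher and 5.6% either way. The 10 genes were picked with their behaviour on these same arrays known, so their changes are a description, given with no p-value, and nothing is read from their count. The median change of the 10 probes was -0.08, and that of all compared probes was -0.002. Without the Fgf10 pair, the other 8 probes ran between -0.24 and 0.25.

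The secreted ligand Fgf10 is best known as a mesenchymal signal to epithelium in lung and limb buds, received by an isoform of Fgfr2, and in adult mouse brain it marks tanycytes, cells lining the third ventricle. The first of its probes (ILMN_2982771) had log2 intensities of 6.44, 6.04, 6.62 and 6.42 on methanol arrays 1 to 4, against 7.10, 7.76, 7.86 and 7.96 on saline arrays 1 to 4. All methanol arrays lay below all saline arrays, and saline 1 was the lowest of its group. Groups that did not overlap were seen on 12.4% of all compared probes. The mean was 6.38 ± 0.24 after methanol and 7.67 ± 0.39 after saline (SD, n = 4 arrays each), a change of -1.29 (SE 0.18), or 2.45-fold lower. Before any background correction or normalization, the same probe had intensities of 250.7, 225.1, 238.9 and 216.9 on the methanol arrays, against 274, 379.6, 381.7 and 398.3 on the saline arrays. The groups were in the same order, and as free of overlap, in these values as after normalization.

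The second Fgf10 probe (ILMN_2736497) had log2 intensities of 6.03, 5.95, 6.38 and 6.58 after methanol, against 6.40, 7.36, 7.14 and 7.36 after saline. Here the groups overlapped, since methanol 4 lay above saline 1, while the other saline arrays stood above every methanol array. Before correction and normalization this overlap was wider. Saline 1 (222.9) then lay below methanol 1, 3 and 4 (223.7, 225.6 and 225.3) and above methanol 2 (220.5). The mean was 6.23 ± 0.30 after methanol and 7.07 ± 0.45 after saline (SD, n = 4 arrays each), a change of -0.83 (SE 0.20), or 1.78-fold lower. This probe stayed past the limit only when methanol 4 or saline 1 was the array left out (-0.96 and -1.05), and lost it without methanol 1 (-0.76), methanol 2 (-0.73), methanol 3 (-0.88), saline 2 (-0.73), saline 3 (-0.81) or saline 4 (-0.73), whereas the first probe kept it without any single array (-1.48 to -1.18). The third Fgf10 probe (ILMN_1213777) was detected on methanol 1 alone and was not compared.

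The size of the Fgf10 change depended on how background was removed. Without background correction the changes were -0.61 and -0.35, and the deposited normalized intensities gave the same values to 2 decimals. A larger offset of 50 gave -1.02 and -0.62. Both probes stayed past the limit in these settings, so the fold values above belong to the correction used.

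**Figure D1:**
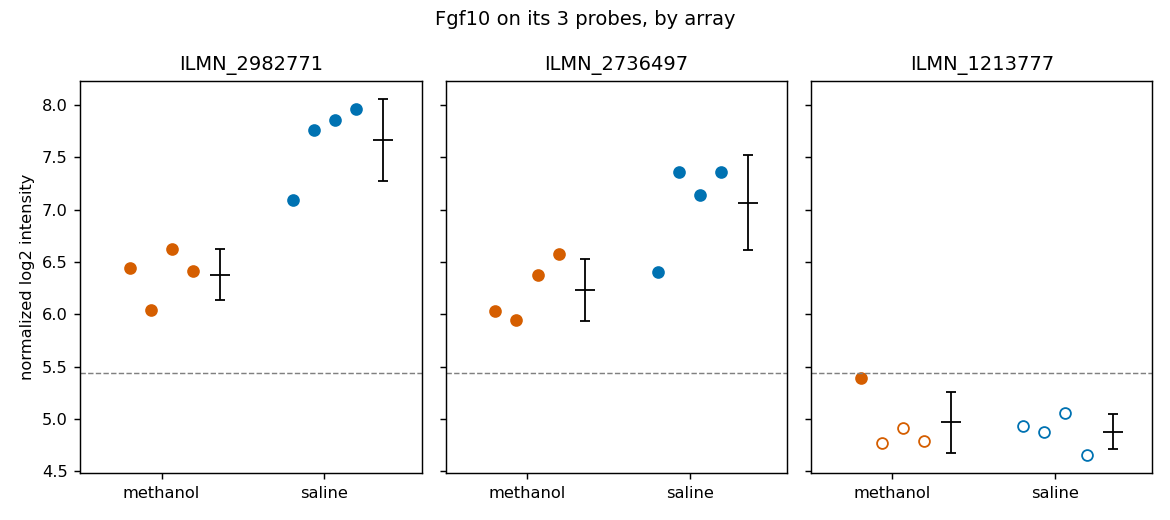
Log2 intensity of the 3 Fgf10 probes on each array, methanol left and saline right, with replicates 1 to 4 of each group in order. Filled points were detected and open points were not, black bars are the mean ± SD, and the dashed line is the mean lowest detected signal; methanol arrays lie below saline arrays on the first probe, with means of 6.38 after methanol and 7.67 after saline, overlap at 1 saline array on the second, and lie under the dashed line on the last.

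The remaining secreted ligands showed smaller differences or were not measured. Fgf1, a heparin-binding growth factor made without a classical signal peptide, had log2 intensities of 8.73, 8.49, 8.61 and 8.43 after methanol, against 8.53, 8.80, 8.93 and 8.39 after saline (ILMN_2701233). Its groups overlapped throughout, and the change was -0.10 (SE 0.12). Fgf9, a ligand made by neurons, had 5.95, 5.76, 6.09 and 5.21 after methanol, against 5.64, 5.40, 5.91 and 5.63 after saline. This probe sat just above the detection floor, was detected on 3 of 4 methanol arrays and 4 of 4 saline arrays, and changed by 0.11 (SE 0.19). Fgf2, a growth factor that maintains neural progenitors in culture, was detected on 0 of 8 arrays, so no difference could be measured at this sensitivity.

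Of the intracellular FGF homologous factors, Fgf12 and Fgf13 were measured and Fgf11 and Fgf14 were not. Fgf12 had log2 intensities of 9.84, 9.60, 9.73 and 9.72 after methanol, against 9.45, 9.45, 9.44 and 9.55 after saline (ILMN_1243357). Every methanol array was above every saline array, although the distance was small. The change was 0.25 (SE 0.08), a 1.19-fold higher mean, and did not pass the limit. Along with the first Fgf10 probe, it was 1 of 2 probes of these genes whose groups did not overlap, beside the 12.4% given above.

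Fgf13, whose protein binds sodium channels and microtubules, was read by a pair of compared probes that moved alike. ILMN_2745480 had 11.12, 11.09, 11.21 and 11.37 after methanol, against 11.19, 11.51, 11.40 and 11.54 after saline, a change of -0.21 (SE 0.09). ILMN_1257196 had 7.05, 7.43, 7.20 and 6.81 after methanol, against 7.30, 7.43, 7.52 and 7.18 after saline, a change of -0.24 (SE 0.13). On both probes the saline mean was the higher but the groups overlapped, and neither passed the limit. Fgf11 was detected on 0 of 8 arrays, and so was Fgf14, a regulator of sodium channels at the axon initial segment, so that neither could be compared. The remaining Fgf13 probe was detected on 3 of 8 arrays.

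The receptors were close to the detection floor. Fgfr1, the receptor of neural progenitors and many neurons, had log2 intensities of 5.07, 5.69, 5.61 and 5.22 after methanol, against 5.25, 5.61, 5.05 and 5.85 after saline. It was detected on 2 of 4 methanol arrays and 2 of 4 saline arrays, and its change was -0.04 (SE 0.21). Fgfr2, expressed by glia in brain, had 6.02, 5.55, 6.11 and 6.35 after methanol, against 5.58, 6.34, 6.10 and 5.87 after saline on ILMN_2609887, a change of 0.03 (SE 0.19). Its second compared probe, ILMN_1229167, had 5.40, 5.51, 5.76 and 5.30 after methanol, against 5.55, 5.43, 5.73 and 5.54 after saline, a change of -0.07 (SE 0.16). The groups were interleaved on all 3 receptor probes, and the sign of the Fgfr1 and first Fgfr2 changes turned when single arrays were left out.

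The 11 probes that were not compared lay between 4.42 and 5.54 on every array, and 7 of the 21 probes were detected on no array. Several belonged to genes that another probe measured well, such as second probes of Fgf1 and Fgf12, each detected on 1 of 8 arrays, while the second Fgfr1 probe and the remaining Fgfr2 probe were detected on none. A probe that is not detected therefore bears on the probe as well as on the transcript, and such probes give no evidence that a gene is silent.

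**Figure D2:**
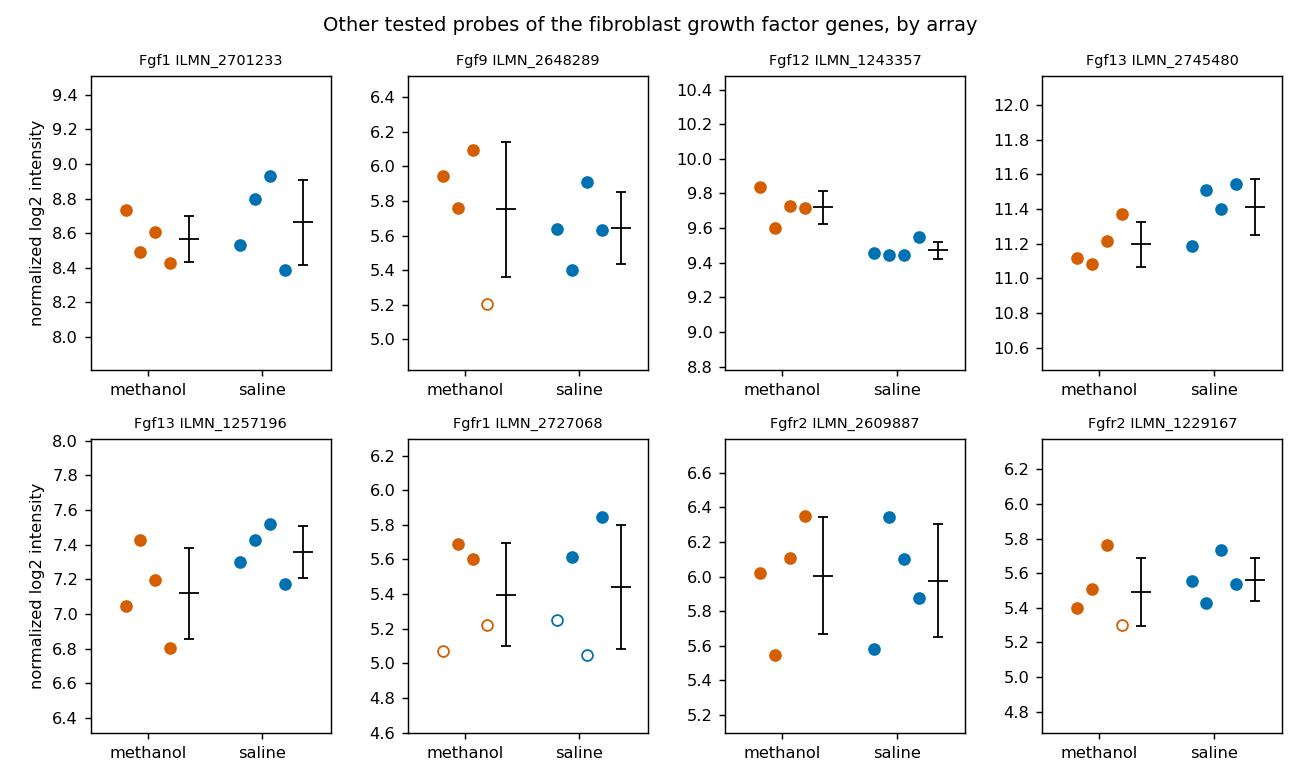
Log2 intensity of the compared probes of the FGF genes other than Fgf10, 1 panel per probe, methanol arrays left and saline arrays right, filled where detected and open where not, with bars for the mean ± SD. Fgf12 is the panel in which the groups do not overlap (means 9.72 after methanol and 9.47 after saline), and the open points, arrays without detection, are in the Fgf9, Fgfr1 and second Fgfr2 panels.

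The rest of the FGF pathway was read through 109 further genes, of which 90 had a probe and 58 were measured, each represented by its brightest compared probe. Of these 58, 6 were higher after methanol, 5 were lower and 47 were not called, with adjusted p taken over all probes. That is 19.0%, while 5.92% of all 8528 genes read the same way were called, 3.4% higher and 2.52% lower. The pathway lists were written with earlier results of these data known, so nothing is read from this share. The median change of the 58 was 0.05, against 0.004 for all genes. When arrays were scaled to a common median instead of quantile normalized, 1 was higher (Scn1a) and 5 were lower, and the calls of Gpc5, Flrt1, Shc1, Ptpn11, Pik3r1 and Sdc4 were lost while Etv1 was newly called lower.

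Among the other ligands and receptors, 4 of 17 genes were measured and none was called. Fgf5, known as a brake on hair growth, changed by 0.27 (SE 0.18, adjusted p = 0.440 in limma). Fgf17, a patterning signal of the midbrain and hindbrain, changed by 0.22 (SE 0.17, limma adjusted p = 0.517). It lay near the detection floor (5.31 to 5.99) and was detected on 4 of 4 methanol arrays and 2 of 4 saline arrays. Its other probe was detected on 0 of 8 arrays. Fgfr3, a receptor of astrocytes, had 7.46, 7.86, 8.12 and 7.56 after methanol, against 7.02, 7.36, 7.54 and 7.69 after saline, a change of 0.35 (SE 0.16, adjusted p = 0.232). Fgfrl1, which binds FGFs but lacks a kinase domain, had 5.94, 6.12, 6.18 and 5.22 after methanol, against 6.28, 6.54, 6.32 and 6.44 after saline. It was detected on 3 of 4 methanol arrays and 4 of 4 saline arrays. Its groups did not overlap, yet the change of -0.53 (SE 0.19) did not pass the test (adjusted p = 0.123).

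Of 14 measured co-receptors and binding proteins, 2 rose (Gpc5 and Flrt1) and 2 fell (Kl and Sdc4). Kl, or klotho, the co-receptor of Fgf23 and a product of the choroid plexus, had 5.66, 5.61, 5.66 and 5.77 after methanol, against 6.19, 6.90, 8.09 and 6.19 after saline, a change of -1.17 (SE 0.31, limma adjusted p = 0.042). Saline 3 stood far above the other saline arrays, while the methanol arrays lay close together, just above the detection floor. The second Kl probe was detected on 0 of 8 arrays. The call was lost without methanol 1, 2, 3 or 4 or saline 2 (-1.39 to -0.75 over single arrays left out). It was also lost in 5 of 9 other settings, such as without background correction, where the change was -0.46. Sdc4, the heparan sulfate proteoglycan syndecan-4, had 8.27, 7.75, 8.17 and 8.34 after methanol, against 8.58, 8.56, 8.73 and 8.61 after saline, a change of -0.49 (SE 0.12, adjusted p = 0.027). Its groups did not overlap, and the call was lost without methanol 3 or saline 2, 3 or 4 (-0.56 to -0.36).

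Gpc5, the proteoglycan glypican-5, had 9.99, 10.05, 9.96 and 10.07 after methanol, against 9.66, 9.51, 9.74 and 9.71 after saline, a change of 0.36 (SE 0.08, limma adjusted p = 0.013). The groups were well separated on this probe, and it kept its call without any single array. A pair of further Gpc5 probes changed by 0.26 and 0.22 and were not called. Flrt1, a membrane protein that binds FGF receptors, had 7.55, 7.72, 7.36 and 7.49 after methanol, against 7.22, 7.07, 7.21 and 6.86 after saline, a change of 0.44 (SE 0.12, adjusted p = 0.038). It lost its call without methanol 1, 2 or 4 or saline 2, 3 or 4 (0.37 to 0.50). Gpc6, a glypican like Gpc5, changed by 0.50 (SE 0.18, limma adjusted p = 0.139). It lay near the detection floor (means 5.82 after methanol and 5.33 after saline) and was detected on 4 of 4 methanol arrays and 1 of 4 saline arrays.

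None of 11 measured heparan sulfate enzymes was called, and 9 had a change above 0, with a median of 0.16. Hs2st1, which adds sulfate to the uronic acid of heparan sulfate, had 8.20, 7.96, 8.08 and 8.16 after methanol, against 7.78, 7.82, 7.85 and 7.77 after saline, a change of 0.30 (SE 0.09, limma adjusted p = 0.070). The groups of Hs2st1 did not overlap. Extl1, a glycosyltransferase of the same chains, changed by 0.27 (SE 0.10, adjusted p = 0.157).

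Of 11 measured signal transducers, 3 rose and none fell, with a median change of 0.04. Pik3r1, the regulatory subunit of phosphoinositide 3-kinase, had 11.11, 11.05, 11.11 and 11.05 after methanol, against 10.43, 10.79, 10.60 and 10.69 after saline, a change of 0.45 (SE 0.08, limma adjusted p = 0.0042). Its second probe rose by 0.42 (adjusted p = 0.0057). On both probes all methanol arrays were above all saline arrays. Shc1, an adaptor that links receptors to Ras, had 9.02, 9.03, 9.11 and 9.05 after methanol, against 8.56, 8.69, 8.62 and 8.81 after saline, a change of 0.38 (SE 0.08, adjusted p = 0.013). Ptpn11, the phosphatase Shp2, had 12.22, 12.11, 12.02 and 12.003 after methanol, against 11.83, 11.78, 11.77 and 11.63 after saline, a change of 0.34 (SE 0.07, adjusted p = 0.018). These groups too were apart, but Ptpn11 lost its call without methanol 1 or saline 4 (0.29 to 0.37), and its dimmer probes changed by 0.26 and 0.19 with no call.

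Of 10 measured feedback regulators and transcriptional targets, 2 fell and none rose. Ccnd1, cyclin D1, which drives entry into the cell cycle, had 8.23, 8.26, 8.50 and 8.55 after methanol, against 8.73, 8.84, 9.19 and 9.20 after saline, a change of -0.61 (SE 0.12, limma adjusted p = 0.0085). Its other probes changed by -0.75 and -0.73 and were both called. No Ccnd1 probe had overlapping groups, and the Ccnd1 call was kept in all 17 alternative settings. Dusp4, a phosphatase that inactivates MAP kinases, had 5.41, 5.48, 5.62 and 5.63 after methanol, against 5.73, 6.30, 6.24 and 6.31 after saline, a change of -0.61 (SE 0.16, adjusted p = 0.037). Dusp4 was close to the detection floor on the methanol arrays, and its call was lost when any single array other than saline 1 was left out (-0.75 to -0.56). Etv1, an ETS factor induced by FGF signals, changed by -0.62 (SE 0.18, adjusted p = 0.057) and by -0.50 on its second probe, with no call. Its first probe was called with median scaling, with robust moderation, with a replicate block, without methanol 3 (-0.77) and without saline 1 (-0.74).

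Of 8 measured sodium channel genes and other partners of the intracellular factors, Scn1a rose and Scn3b fell. Scn1a, the alpha subunit Nav1.1 of inhibitory neurons, had 9.72, 9.55, 9.58 and 9.15 after methanol, against 9.04, 8.88, 8.44 and 8.20 after saline, a change of 0.86 (SE 0.16, limma adjusted p = 0.0065). The groups did not overlap, and the call was kept in all 17 alternative settings. Scn3b, an accessory beta subunit, had 7.75, 8.16, 8.37 and 8.46 after methanol, against 8.39, 8.81, 8.80 and 8.95 after saline, a change of -0.56 (SE 0.15, adjusted p = 0.043), and its second probe changed by -0.63 (adjusted p = 0.043). Methanol 4 overlapped saline 1 on the first of these probes, and the call was lost without methanol 1, 2 or 3 or saline 2, 3 or 4 (-0.67 to -0.41). Scn4b, a beta subunit abundant in striatum, had 10.60, 11.27, 10.34 and 9.15 after methanol, against 11.47, 9.58, 9.58 and 7.54 after saline, a change of 0.79 (SE 0.60, adjusted p = 0.495) that was smaller than the spread of the saline arrays.

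Over all 58 genes both kinds of call moved with single arrays. The higher calls numbered 6 with all arrays and 4 to 7 with 1 left out, with 4 without methanol 1 or saline 4. The lower calls numbered 5 with all arrays, and 2 without methanol 1, 2 or 3, 3 without methanol 4, 1 without saline 2, 2 without saline 3 or 4, and 7 without saline 1.

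**Figure D3:**
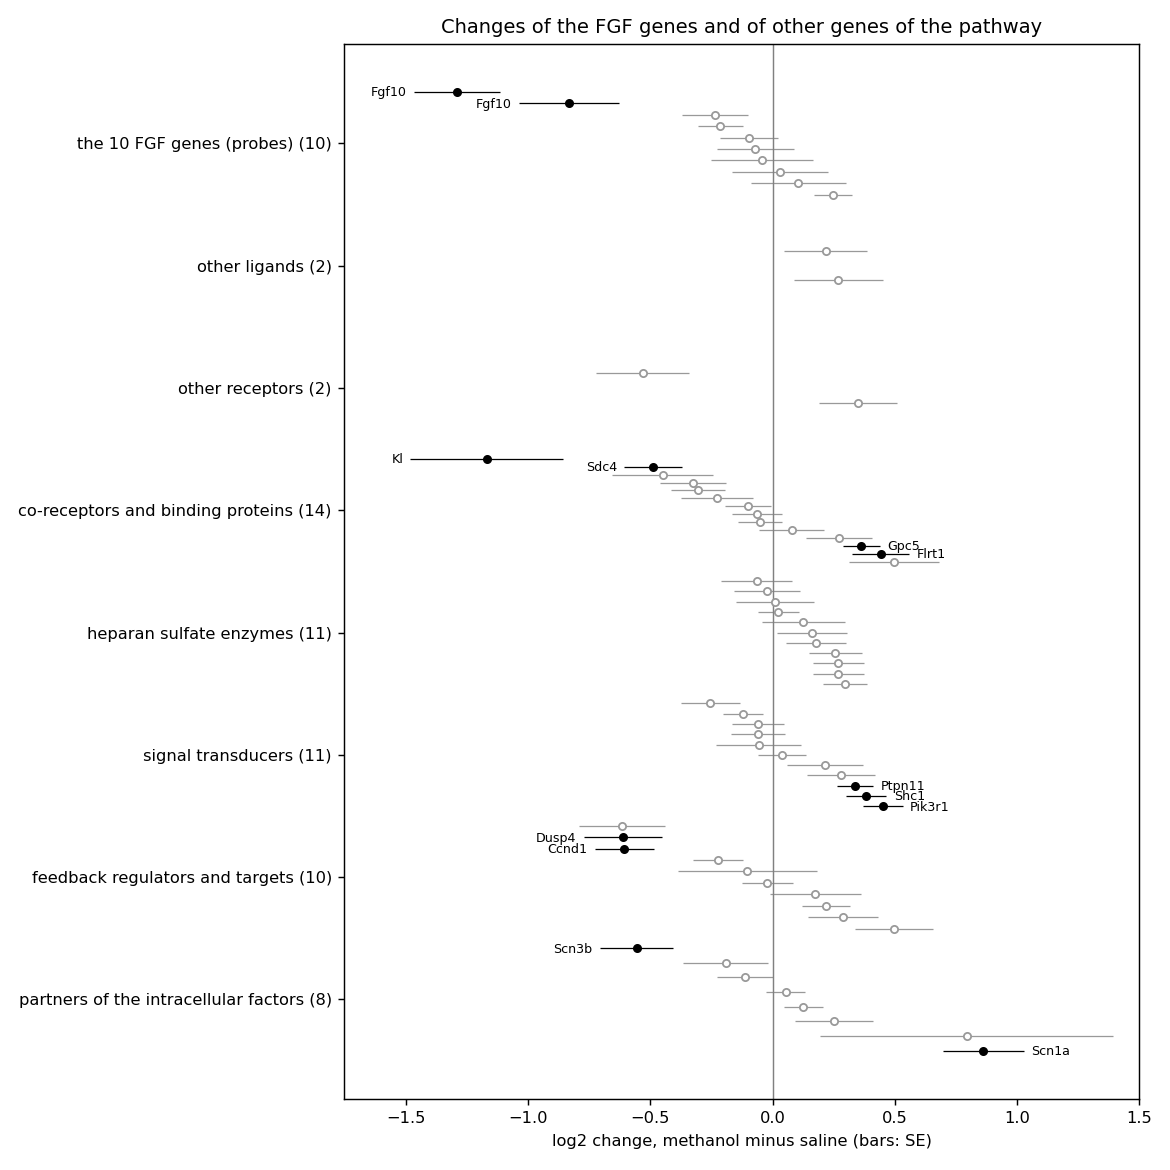
Change in log2 intensity (methanol minus saline, horizontal axis) with its SE for each compared probe of the 10 FGF genes and each other measured pathway gene, grouped by role with the number measured. Filled black points with names are those past the limit and open grey points are not; the Fgf10 pair lies farthest left with Kl, and Scn1a farthest right among the calls at 0.86.

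Marker lists whose level moved with Fgf10, Kl or Scn4b are set beside them here, as sums of linear intensity over each list given in log2. In bulk tissue, fewer cells of a type and less RNA per cell cannot be told apart. Of the ependymal list, 2 of 6 genes were measured (Foxj1 and Rsph1), and their sum ran from 7.08 to 7.47 on methanol arrays and from 8.08 to 8.44 on saline arrays, without overlap. Rsph1, a protein of motile cilia, carried this difference, with a change of -1.29 (limma adjusted p = 3.3e-05). Foxj1, a transcription factor of ciliated cells, changed by -0.01 (SE 0.19, limma adjusted p = 0.988), and its groups overlapped. It lay near the detection floor (5.29 to 5.96), with 3 of 4 arrays detected in each group, so it could hardly show a fall. These genes therefore do not tell whether the list moved as a whole. The red cell sum also did not overlap, at 12.36 to 12.65 on methanol arrays and 14.06 to 14.46 on saline arrays. The oligodendrocyte sum, over 8 of 9 genes, was narrowly apart the other way, at 14.70 to 15.22 on methanol arrays and 14.12 to 14.68 on saline arrays. Its largest term, Mbp, changed by 0.41 and was not called (limma adjusted p = 0.096). Of the 8 genes, 6 had a change above 0 and 2 below 0, with Opalin called lower (-0.82), so the oligodendrocyte list did not move as a whole.

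The tanycyte sum, over 2 of 5 genes (Crym and Col23a1), was 8.44 to 9.65 on methanol arrays and 9.34 to 10.18 on saline arrays, and the defining markers Rax and Dio2 were detected on 0 of 8 arrays. The hypothalamic sum, over Trh and Oxt of 8 listed genes, was 6.25 to 6.80 on methanol arrays and 6.60 to 9.18 on saline arrays, with Hcrt, Pmch, Pomc and Npvf detected on none. Trh was detected on 2 of 4 methanol and 3 of 4 saline arrays, Oxt on 3 and 4, and Col23a1 on 1 and 3. Their methanol means (5.24, 5.82 and 5.38) were near or below the detection floor. Saline 3 and 4 were the high arrays of the hypothalamic, tanycyte and meningeal lists, and the meningeal sum over 4 of 8 genes was 10.71 to 11.48 on methanol arrays and 11.10 to 12.09 on saline arrays. No gene of these 3 lists was called. The part of any of these lists in the Fgf10 difference was not tested.

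The choroid plexus sum, over 3 of 9 genes, was 8.72 to 9.85 on methanol arrays and 8.13 to 14.43 on saline arrays, with none called. Of the genes not measured, F5 was detected on no array. Each probe of Folr1, Kcne2 and Otx2 was detected on 0 methanol arrays and 1 saline array, and Sostdc1 on 0 and 3. Ttr was the largest term of this sum on every array, at 14.39 on saline 3. Saline 3 was the highest array for this sum, as it was for Kl, but saline 4 was the lowest of all 8 for the sum and still above every methanol array for Kl. The part of choroid plexus in the Kl difference was not tested. The striatal sum, over 4 of 6 genes, was 12.34, 13.14, 11.85 and 11.22 on methanol arrays 1 to 4, against 13.15, 11.76, 12.14 and 10.29 on saline arrays 1 to 4. Its order within the saline group was close to that of Scn4b, with saline 1 highest and saline 4 lowest. The Fgf10 probe with the larger change was lowest, within each group, on the array with the highest striatal sum (methanol 2 and saline 1), and the part of striatum in either difference was not tested.

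**Figure D4:**
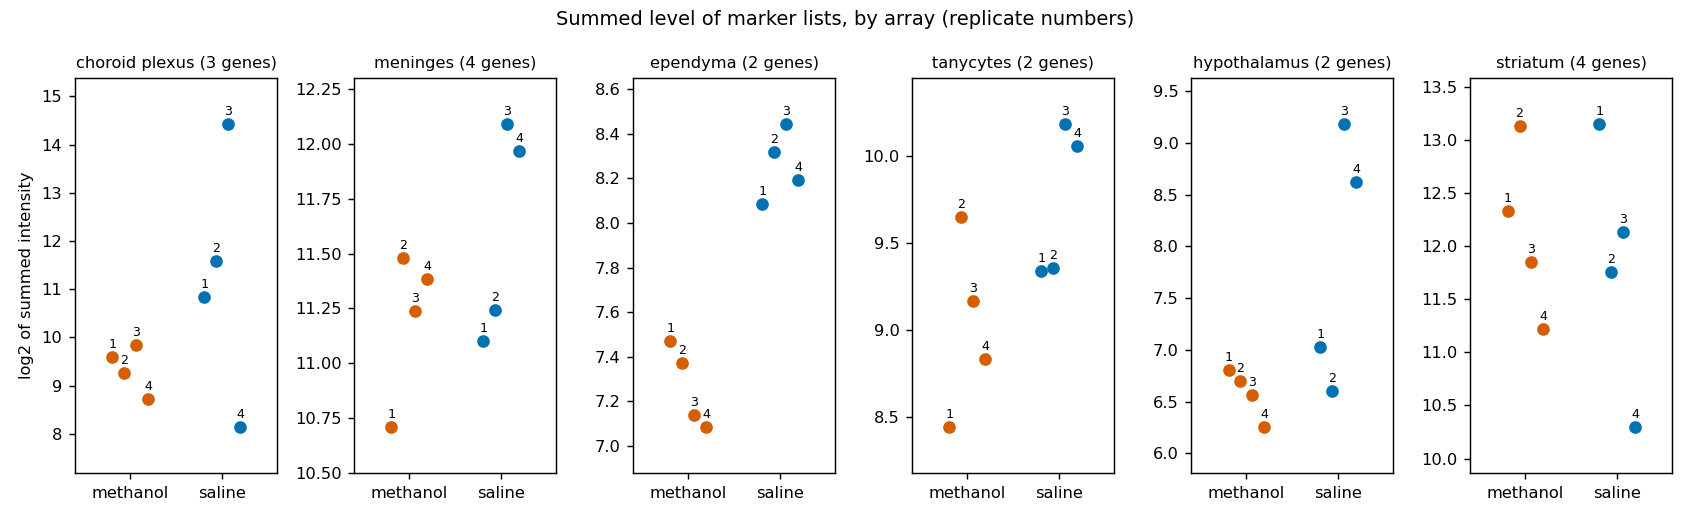
Log2 of the summed intensity of 6 marker lists on each array, 1 panel per list with its number of measured genes, methanol left and saline right, with replicate numbers at the points. The ependymal panel is the one without overlap (7.08 to 7.47 after methanol, 8.08 to 8.44 after saline), and saline 3 stands highest in the choroid plexus panel at 14.43.

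The genes whose values over the 8 arrays were most like those of the first Fgf10 probe were Mzt1 (Pearson r = 0.98), Pycrl (0.98), Pcdhb12 (0.97), Gpatch11 (0.97) and Krt8 (0.97). All 5 had lower means after methanol, with changes of -0.36, -0.63, -0.36, -0.81 and -0.29. The correlations include the difference between the groups and are given as a description.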

How the data were processed

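The authors prepared biotinylated cRNA, hybridised it to the bead arrays and processed the scans in GenomeStudio. They deposited 2 tables of probe intensity for the same 8 arrays, 1 un-normalized (medians 179.5 to 193.7 on methanol arrays and 175.6 to 195.8 on saline arrays) and 1 whose 8 columns hold the same sorted values and are therefore already normalized, although titled otherwise. The deposited detection p-value of each probe and array came with the normalized table. The un-normalized intensities were corrected by normexp using the detection p-values (offset 16), quantile normalized and put on the log2 scale in limma 3.58.1 (R 4.3.3). Probes with a detection p under 0.05 on at least 4 arrays were fitted with lmFit and eBayes with a variance trend, without covariates, and adjusted by Benjamini-Hochberg. The platform table named 23978 of 25697 probes for 1 gene, 1719 for none and 0 for several. For genes outside the 10, the compared probe with the highest mean stood for the gene. Those named are the called genes, the other measured ligands and receptors, and the 2 with the largest change per list. The genes and lists were chosen with earlier results of these data known. The fit was tested on simulated data. Alternatives covered background, normalization, filters, variance models, a replicate block and leaving out each array. The number of arrays, 4 per group, limits the precision, and p-values measure only the spread between these arrays. Since probes differ in binding, levels of different probes were compared only to pick the brightest probe of a gene and to form and describe the marker sums.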

Additional observations from a re-analysis of the deposited data

Results flagged for a closer look

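Within the groups of 4 arrays, 2 of 60 checked groups of values had 1 array far from the other arrays, a gap over the range of 0.885 and 0.873. Fgf12 on saline 4 was 9.55, while the other saline arrays lay at 9.44 to 9.45. Dusp4 on saline 1 was 5.73, while the other saline arrays lay at 6.24 to 6.31. By chance about 1 in 20 groups would stand out this way.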

How the results depend on the processing

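The first Fgf10 probe kept its direction and its side of the limit in every alternative run (-1.32 to -0.61, and -1.48 to -1.18 leaving out single arrays). The second kept its direction (-0.87 to -0.35, and -1.05 to -0.73 leaving out single arrays) but lost the limit without a variance trend, at an unchanged -0.83, where 1 FGF probe was lower, as well as without the arrays named above (1 to 2 lower). With median scaling, 161 probes were higher and 168 lower over the whole array, 1 other pathway gene was higher, and the first Fgfr2 probe turned to -0.0016. Without a variance trend, 2 other pathway genes were lower. Leaving out single arrays gave 204 to 467 higher and 152 to 436 lower probes, 4 to 7 higher and 1 to 7 lower pathway genes, and sign changes of Fgf9 (-0.0090 to 0.30), Fgfr1 (-0.17 to 0.092) and the first Fgfr2 probe (-0.10 to 0.18). The fewest calls came without saline 4 (204 higher, 160 lower), saline 3 (216, 152), methanol 1 (225, 193) and saline 2 (245, 194). For arrays sharing a replicate number, correlations of deviations were 0.185, -0.109, -0.013 and 0.251, against -0.224 to 0.196 for other pairs. Whether a shared number marked a pair of arrays was not tested. With the number as a replicate block, 476 probes were higher and 483 lower, and both Fgf10 probes stayed past the limit at -1.29 and -0.83. The cause of these shifts was not tested. Signals near 5.44 leave Fgf9, Fgfr1 and Fgfr2 imprecise.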
